A study of Mus musculus with 2 samples.

Results

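The 9 heat shock chaperone genes Hspa1a, Hspa1b, Hspa8, Dnajb1, Hsph1, Hsp90aa1, Hsp90ab1, Hspe1 and Hspd1 were taken by their symbols from the gene list of 2 single-cell RNA sequencing libraries, which holds 31053 genes, and were counted in barcodes with at least 1000 detected genes and at most 10% of their UMIs (unique molecular identifiers, each standing for 1 captured transcript) from mitochondrially encoded genes. All 9 were found in both libraries. One library came from LCR1-/- mice (KO) and 1 from wild-type mice (WT), both of the C57BL/6J strain and 8 to 12 weeks old, with the animals of a genotype pooled and males and females in the same number. Marrow was obtained by crushing bones, red cells were lysed with ACK buffer, and viable CD45+ cells without lineage markers and with CD127, the interleukin-7 receptor alpha chain, were sorted before droplet capture. The question behind the design was how ILC2, the group 2 innate lymphoid cells, form when LCR1 is deleted. The labels do not place LCR1 in the genome, so no transcript checks the genotypes here.

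Heat shock proteins are chaperones that hold and refold unfolded proteins. Under heat or other proteotoxic stress the transcription factor HSF1 is released from chaperones, forms trimers and binds arrays of the units GAA and TTC, the heat shock elements, at genes such as Hspa1a, Hspa1b, Dnajb1 and Hsph1. Several members also serve growing cells without stress, above all Hspa8, the constitutive cytosolic Hsp70 protein, the Hsp90 proteins and the mitochondrial pair Hspe1 and Hspd1. Immediate early genes such as Fos, Jun and Egr1 are switched on by other routes, through kinases that act on factors already present in the cell, and they too are often high in cells that have been taken out of a tissue. The comparison below asks whether the chaperones go with Fos, between libraries and from cell to cell.

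With a single library per genotype there is no test, and nothing below that sets KO against WT has a replicate check. Intervals are at 95% and cover counting error only. The libraries differed in depth before any filter. KO had 8476 barcodes with a median of 4078.5 UMIs, 5650 of them with enough genes. WT had 20293 barcodes with a median of 936 UMIs, 4033 of them with enough genes. The KO library gave 4343 cells and 42601457 UMIs with a median of 7261 UMIs per cell, and the WT library gave 3290 cells and 29168870 UMIs with a median of 5371.5. The limit on mitochondrial UMIs removed 23.1% of the KO and 18.4% of the WT barcodes that had enough genes. The cells left had a median mitochondrial share of 4.72% in KO and 4.53% in WT. Library and genotype cannot be told apart. No barcode of the kept cells was shared between the libraries. Il7r, which encodes CD127, had a UMI in 93.0% of KO cells and 85.7% of WT cells. Cells were gated to classes by 13 lists of 8 lineage markers, which placed 3635 KO cells (83.7%) and 2622 WT cells (79.7%) and left the others ungated. The gate was passed by a lead of only 1 marker in 1163 of the gated KO cells and 853 of the gated WT cells. In the 7 classes with at least 50 cells in both libraries, all 8 markers of a class's own list were detected except Klk1, which was at 0 UMIs in the KO plasmacytoid dendritic cell-like cells. Since the gate used these same markers, this is no check of the classes. In ILC precursor-like cells the T marker list summed to 1865 counts per 1000000 UMIs in KO, led by Trbc1 at 1544, and to 1725 in WT. Their own list summed to 2004 in KO and 2587 in WT.

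The sequences upstream of the starts of 6 of the 9 chaperone genes and of Fos were at hand from RefSeq (GRCm38.p6), and are shown for the motif that HSF1 recognises, which marks the heat shock route and not the route to Fos. The lines below give the 250 bases before the start of transcription for Hspa1a, Hspa1b, Dnajb1 and Fos, and 30 bases around the heat shock element for Hsph1 and Hspe1. All are 5′ to 3′ on the strand of the gene, and capitals mark every match to GAANNTTC or TTCNNGAA, the 2-unit heat shock element, each of which reads the same on both strands.
Hspa1a (chr17:34972157-34972406, minus strand): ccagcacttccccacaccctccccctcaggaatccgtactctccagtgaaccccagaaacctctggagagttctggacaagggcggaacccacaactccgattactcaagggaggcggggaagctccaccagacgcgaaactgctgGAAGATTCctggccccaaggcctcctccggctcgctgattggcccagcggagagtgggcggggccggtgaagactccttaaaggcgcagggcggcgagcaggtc
Hspa1b (chr17:34959239-34959488, minus strand): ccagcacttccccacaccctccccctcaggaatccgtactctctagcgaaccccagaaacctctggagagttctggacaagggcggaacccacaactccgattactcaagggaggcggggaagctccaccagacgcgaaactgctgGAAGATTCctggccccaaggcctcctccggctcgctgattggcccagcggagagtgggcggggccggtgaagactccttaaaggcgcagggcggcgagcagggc
Hsph1 (chr5:149636351-149636380, minus strand): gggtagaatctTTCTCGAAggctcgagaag
Hspe1 (chr1:55088053-55088082, plus strand): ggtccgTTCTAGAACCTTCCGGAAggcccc
Dnajb1 (chr8:83607925-83608174, plus strand): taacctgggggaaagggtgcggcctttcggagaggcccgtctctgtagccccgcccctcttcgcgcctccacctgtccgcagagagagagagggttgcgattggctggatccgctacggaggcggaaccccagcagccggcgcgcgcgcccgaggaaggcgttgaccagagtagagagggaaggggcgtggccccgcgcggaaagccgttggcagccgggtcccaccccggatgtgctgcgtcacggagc
Fos (chr12:85473640-85473889, plus strand): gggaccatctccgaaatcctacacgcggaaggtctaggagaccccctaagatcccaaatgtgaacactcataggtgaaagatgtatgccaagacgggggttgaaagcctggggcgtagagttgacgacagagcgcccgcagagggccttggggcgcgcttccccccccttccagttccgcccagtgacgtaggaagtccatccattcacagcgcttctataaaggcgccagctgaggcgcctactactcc

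The Hspa1a and Hspa1b windows differed at 3 of 250 bases and both held 1 element, which began 104 bases before the start. Hsph1 had 1 element 33 bases before its first listed start. These were matches of 2 units, and no window of Hspa1a, Hspa1b or Hsph1 held a run of 3 units. Hspe1 held an unbroken run of 4 units, 89 bases before its start, in which 3 of the 2-unit matches overlap. Hspe1 and Hspd1 lie head to head on chromosome 1 and their annotated genes overlap by 112 bases, so that the upstream windows of Hspe1 and of the second listed start of Hspd1 share 215 bases and this same element. Neither listed window of Dnajb1 nor the window of Fos held a match. Among all 32851 promoter windows of the table, 12.8% held at least 1 match to the 2-unit element and 0.466% a run of 3 units. A run of 4 units, spelled GAANNTTCNNGAANNTTC or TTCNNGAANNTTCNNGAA, was held by 0.0213%. A match is a description of these letters only, and a window without one says nothing about HSF1 at the gene.

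Hspa1a and Hspa1b encode the stress-inducible cytosolic Hsp70 proteins from single-exon genes on the minus strand of chromosome 17 (mm10, chr17:34969190-34972156 for Hspa1a and chr17:34956436-34959238 for Hspa1b), with 9951 bases between them. Their transcripts share exact runs of up to 638 bases, but in the last 400 bases, where a 3' library is read, the longest shared run was 10 bases. Reads from further upstream cannot be assigned to 1 gene, so the split between both genes is less certain than their sum. Both were rare. Over all kept cells Hspa1a had 610 UMIs, or 14.3 CPM (counts per 1000000 UMIs), in KO and 138 UMIs or 4.73 CPM in WT. Hspa1b had 365 UMIs or 8.57 CPM in KO and 128 UMIs or 4.39 CPM in WT.

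The UMIs of these genes sat in few cells. At least 1 UMI of either gene was found in 361 of 4343 KO cells (8.31%) and in 121 of 3290 WT cells (3.68%). Of these, 55 KO cells and 10 WT cells held 5 or more, and they carried 51.2% of the Hspa1a and Hspa1b UMIs in KO and 40.6% in WT. The most in a single cell was 21 in KO and 20 in WT. Both genes tended to be found in the same cells. Hspa1b was detected in 20.7% of the KO cells with a Hspa1a UMI and in 2.93% of the other KO cells, and in 19.7% and 1.71% of those cells in WT. Because so few cells carry the UMIs, the counting intervals of the Hspa1a and Hspa1b levels are narrower than the spread from cell to cell, and shares of cells are given beside them.

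To take out depth, every cell was thinned at random to 2000 UMIs, and shallower cells were left out (11 in KO and 239 in WT). Over the 7 compared classes, 103 of 3350 thinned KO cells (3.07%, Clopper-Pearson interval 2.52 to 3.72) had a UMI of Hspa1a or Hspa1b, against 27 of 2356 thinned WT cells (1.15%, 0.757 to 1.66). By class the share was 6.29% in KO (4.19 to 9.03) and 1.72% in WT (0.209 to 6.09) for NK or ILC1-like cells (natural killer cells and group 1 innate lymphoid cells), and 2.56% in KO (1.52 to 4.01) and 0.868% in WT (0.350 to 1.78) for ILC2-like cells. Common lymphoid progenitor-like cells had 2.42% in KO (1.62 to 3.48) and 1.14% in WT (0.495 to 2.24). T-like cells went the other way, with 5.81% in KO (2.82 to 10.4) and 7.32% in WT (2.73 to 15.2). The share was higher in KO in 6 of the 7 classes, and within each class the intervals of the libraries overlapped. Free RNA in the droplets can give single UMIs, no sorted class is known to lack these genes, and the part of free RNA was not tested.

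**Figure D1:**
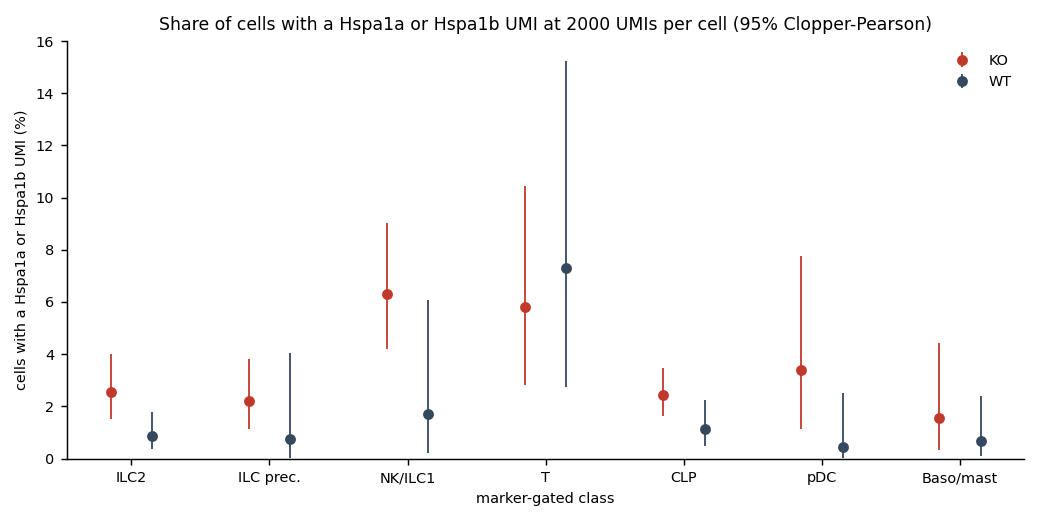
Share of cells with a Hspa1a or Hspa1b UMI after thinning to 2000 UMIs per cell (y axis, percent) in the 7 compared classes (x axis; CLP, common lymphoid progenitor-like; pDC, plasmacytoid dendritic cell-like), KO left and WT right, with Clopper-Pearson intervals at 95%. The KO point lies above the WT point in 6 classes, from 1.54% in basophil or mast cell-like to 6.29% in NK or ILC1-like cells, and below it in T-like cells.

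In CPM each gene was taken alone, so these ratios are not on the same footing as the shares of cells with either gene. Hspa1a was at 15.6 CPM in KO and 2.15 CPM in WT in ILC2-like cells (54 and 11 UMIs), a 7.25-fold difference (interval 3.75 to 15.4). It was 2.13-fold higher in KO (1.56 to 2.95) in common lymphoid progenitor-like cells, with 190 and 52 UMIs, and 12.2-fold (3.79 to 62.7) in basophil or mast cell-like cells, where the WT library had 3 UMIs. T-like cells had 19.2 CPM of Hspa1a in KO and 29.4 CPM in WT, a ratio of 0.654 (0.325 to 1.33). In the same cells Hspa1b went the other way, with 35.6 CPM in KO and 8.65 CPM in WT (37 and 5 UMIs). That was 4.11-fold higher in KO (1.61 to 13.4). For Hspa1a the interval lay above 1 in 6 of 7 classes and for Hspa1b in 4 of 7. Hspa1b was at 24.8 CPM in KO and 9.58 CPM in WT in NK or ILC1-like cells, 2.59-fold higher (1.29 to 5.91), while in common lymphoid progenitor-like cells it was at 3.74 CPM in KO and 4.47 CPM in WT (0.836, 0.565 to 1.25). Of all gene and class pairs whose higher library had 5 to 50 CPM, 3.16% were at least 1.5-fold higher in KO with an interval that left out 1, and 5.36% were at least 1.5-fold lower. Neither gene reached 50 CPM in any class, so neither enters the counts further below that ask for at least 50 CPM.

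Dnajb1 was the chaperone that was higher in KO in every class. It encodes an Hsp40 protein, which passes clients to Hsp70 and stimulates its ATPase, and lies on chromosome 8 (chr8:83608193-83612653, plus strand, 3 exons). In plasmacytoid dendritic cell-like cells it stood at 184.9 CPM in KO and 105.9 CPM in WT (1.75-fold, 1.47 to 2.08), and in basophil or mast cell-like cells at 110.0 CPM in KO and 59.2 CPM in WT (1.86-fold). T-like cells had 135.6 CPM in KO and 83.0 CPM in WT (1.63-fold, 1.17 to 2.32), and ILC precursor-like cells 101.4 CPM in KO and 64.1 CPM in WT (1.58-fold, 1.29 to 1.95). These 4 classes passed the size rule used here, at least 1.5-fold with an interval that leaves out 1, at least 50 UMIs over both libraries and at least 50 CPM in the higher. The difference was smaller in common lymphoid progenitor-like cells (131.3 CPM in KO, 89.2 CPM in WT, 1.47-fold), NK or ILC1-like cells (98.7 and 73.4 CPM, 1.34-fold) and ILC2-like cells (90.4 and 75.6 CPM, 1.19-fold, 1.03 to 1.39). In a thinned cell a Dnajb1 UMI was found in 18.7% of KO cells (17.4 to 20.1) and 13.2% of WT cells (11.8 to 14.6). The top 1% of cells held 9.19% of its UMIs in KO and 9.92% in WT.

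Hsph1 encodes Hsp110, the nucleotide exchange factor of Hsp70, and it showed no such difference (chr5:149614287-149636376, minus strand). It had 54.1 CPM in KO and 50.9 CPM in WT in common lymphoid progenitor-like cells (1.06-fold, 0.954 to 1.18). ILC2-like cells had 19.6 CPM in KO and 21.7 CPM in WT (0.905, 0.659 to 1.23). Its interval held 1 in all 7 classes, with ratios of 0.840 to 1.40. Within the 12 parts of classes by cluster given further below, its ratio ran from 0.518 to 2.95. There 1 interval lay above 1, in basophil or mast cell-like cells, and 2 lay below, in ILC precursor-like and common lymphoid progenitor-like cells.

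Hspa8 lies on chromosome 9 (chr9:40800984-40810087, plus strand). Its ratios of KO over WT ran from 0.857 in plasmacytoid dendritic cell-like cells (1461 CPM in KO, 1705 CPM in WT) to 1.08 in NK or ILC1-like cells (1458 and 1347 CPM). ILC2-like cells had 1214 CPM in KO and 1367 CPM in WT (0.888, 0.854 to 0.923).

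The cytosolic Hsp90 genes Hsp90aa1 (chr12:110690605-110702728, minus strand) and Hsp90ab1 (chr17:45567775-45573271, minus strand) encode the inducible and the constitutive paralog, which hold kinases and receptors in a state ready for activation. Hsp90aa1 had 422.0 CPM in KO and 511.2 CPM in WT in ILC2-like cells (0.826, 0.774 to 0.881). It had 622.6 CPM in KO and 541.6 CPM in WT in NK or ILC1-like cells (1.15-fold, 1.04 to 1.27). Hsp90ab1 had 2344 CPM in KO and 1930 CPM in WT in NK or ILC1-like cells (1.21-fold, 1.15 to 1.28), and 1526 CPM in KO and 1655 CPM in WT in ILC2-like cells (0.922, 0.891 to 0.955). Over these whole classes both thus lay below WT in ILC2-like cells and above it in NK or ILC1-like cells, by less than 1.5-fold each time. Within the clusters of ILC2-like cells given further below, no interval of either gene lay below 1.

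Hspe1 and Hspd1 encode Hsp10 and Hsp60, the lid and the barrel of the mitochondrial chaperonin, on chromosome 1 (chr1:55088132-55091307, plus strand, and chr1:55077835-55088243, minus strand). Hspe1 ratios ran from 0.908 in T-like cells to 1.23 in NK or ILC1-like cells, where it had 414.4 CPM in KO and 337.3 CPM in WT. Hspd1 had 166.9 CPM in KO and 242.2 CPM in WT in ILC precursor-like cells, a ratio of 0.689 (0.614 to 0.774), and 310.1 CPM in KO and 366.7 CPM in WT in common lymphoid progenitor-like cells (0.846, 0.811 to 0.882). Its interval lay below 1 in 3 of 7 classes and above 1 in none. This count has no minimum fold, and the share of all genes by that rule was not computed.

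**Figure D2:**
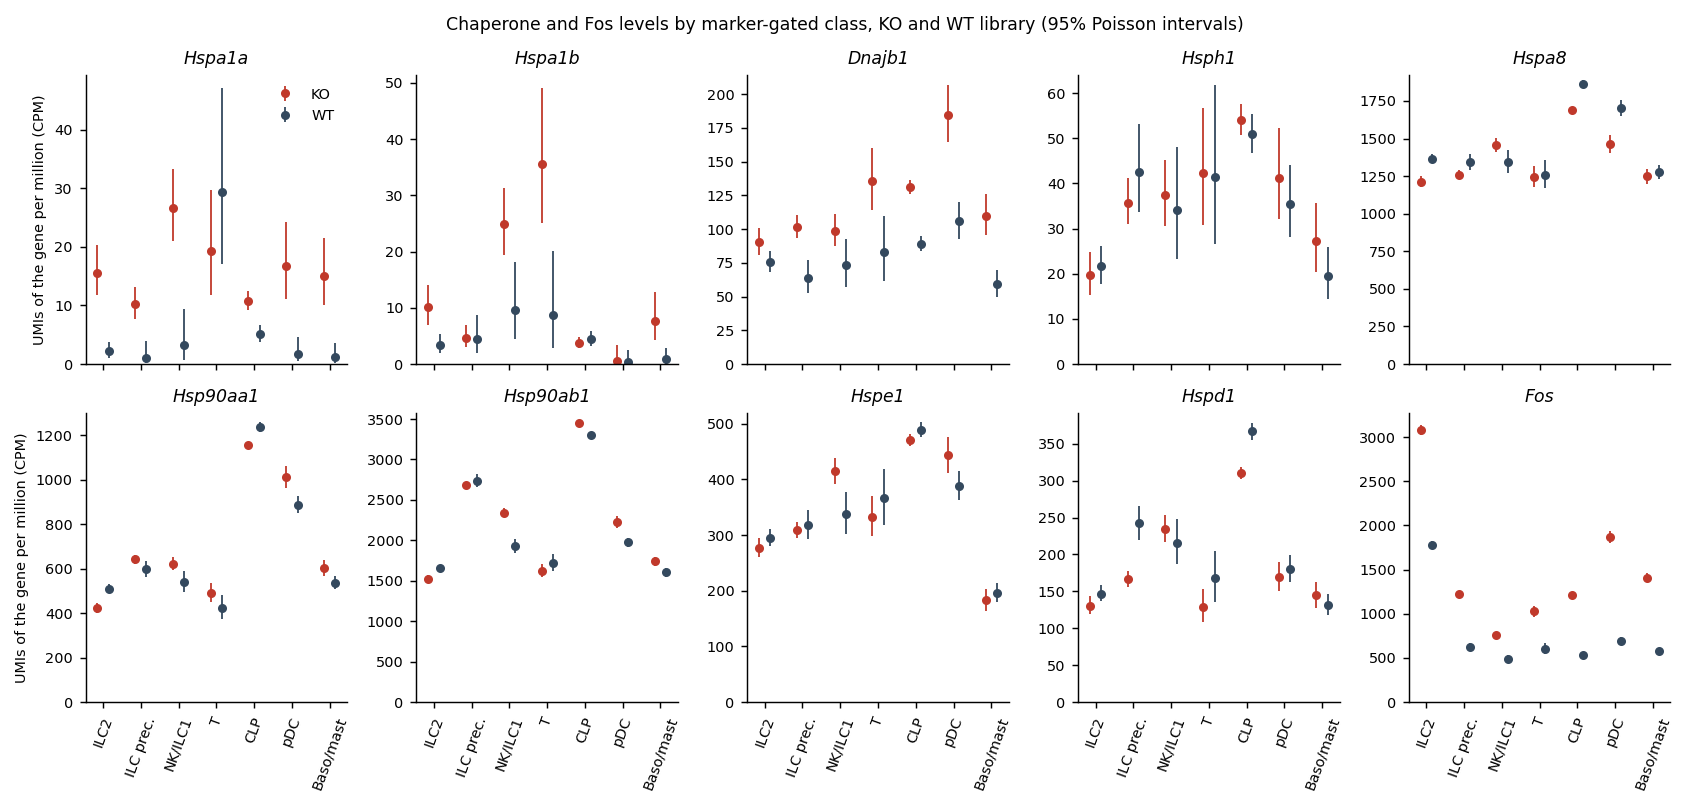
Level of each chaperone and of Fos (y axis, CPM, from 0) in the 7 compared classes (x axis), KO left and WT right, with exact Poisson intervals at 95%. Dnajb1 and Fos are higher in KO in all 7 classes, while Hspa8, Hsp90ab1 and Hspe1 differ more between classes than between libraries.

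Fos differed between the libraries in all 7 classes. It encodes a subunit of the AP-1 transcription factor and lies on chromosome 12 (chr12:85473890-85477273, plus strand). ILC2-like cells had 3084 CPM in KO and 1784 CPM in WT (1.73-fold, 1.68 to 1.78). Common lymphoid progenitor-like cells had 1211 CPM in KO and 538.8 CPM in WT (2.25-fold, 2.18 to 2.31). The ratio was lowest in NK or ILC1-like cells, at 1.55 (756.7 CPM in KO, 487.4 CPM in WT), and highest in plasmacytoid dendritic cell-like cells, at 2.67 (1865 CPM in KO, 697.7 CPM in WT).

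The classes were not made up alike in both libraries. When all kept cells were clustered without the chaperones and the immediate early genes, the ILC2-like cells fell mainly into 2 clusters. A cluster led by Rnf128 and Ccr9 held 22.0% of them in KO and 40.7% in WT, and one led by Calca held 68.1% in KO and 41.9% in WT. In the cluster led by Rnf128, Dnajb1 had 162.1 CPM in KO and 79.2 CPM in WT (2.05-fold, with the interval above 1), and Hspa1a had 48 UMIs in KO and 6 in WT. In the cluster led by Calca, Dnajb1 had 68.6 CPM in KO and 68.9 CPM in WT (0.997, 0.781 to 1.27), and Hspa1a had 5 UMIs in each library. The ratio of Hsp90aa1 was 1.32 in the cluster led by Rnf128 (1.17 to 1.48) and 0.940 in the one led by Calca (0.847 to 1.04), against 0.826 over all ILC2-like cells. That of Hsp90ab1 was 1.22 (1.14 to 1.30) and 1.02 (0.969 to 1.08), against 0.922. In WT, Hsp90aa1 had 447.8 CPM in the first, 373.2 CPM in the second and 453.1 CPM in the smaller cluster 15, against 511.2 CPM over the class. The WT ILC2-like cells outside these clusters thus held more Hsp90aa1 than those within.

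The common lymphoid progenitor-like cells were spread further. Cluster 3, named for that class, held 60.9% of them in KO and 37.6% in WT. Cluster 2 held a further 31.3% in WT and 1.38% in KO. It was named for early B cells by the marker lists, but mt-Nd6 led it, and it held 809 WT and 53 KO cells. It cut across classes, with 20.7% of WT basophil or mast cell-like, 19.1% of WT plasmacytoid dendritic cell-like and 6.25% of WT ILC2-like cells. In KO it held 1.36% of plasmacytoid dendritic cell-like and 0.284% of ILC2-like cells. Its part in the KO to WT ratios was not tested. Within cluster 3 Fos had 1375 CPM in KO and 545.8 CPM in WT (2.52-fold), Dnajb1 144.2 and 91.5 CPM (1.57-fold, 1.41 to 1.76), and Hspd1 307.9 and 386.5 CPM (0.797, 0.751 to 0.845). Of the ILC precursor-like cells, 38.8% in KO and 58.8% in WT lay in the cluster named for that class. Cluster 16 held 62.8% of the basophil or mast cell-like cells in KO and 28.9% in WT. In all, 12 parts of a class in a single cluster had at least 50 cells in both libraries. Fos was higher in KO in all 12, by 1.38-fold to 2.80-fold with every interval above 1. Dnajb1 had a ratio above 1 in 11 of 12 (0.997 to 2.16), with the interval above 1 in 7. Hsp90aa1 had 5 intervals above 1 and 1 below, Hsp90ab1 7 and 0, Hspa8 1 and 4, Hspd1 2 and 2, and Hspe1 0 and 0. Hsph1 had 1 and 2, Hspa1a 8 and 0, and Hspa1b 4 and 0. These counts of intervals have no minimum fold, and the share of all genes by that rule was not computed. The whole-class counts that follow hold these differences in makeup as well, and their part was not tested beyond these values. This split by cluster was added after seeing the data.

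Counted over all classes, 4 of 43 measured chaperone and class pairs (9.30%) were at least 1.5-fold higher in KO by the size rule and 0 were lower, against 2.22% higher and 2.67% lower among all 22918 gene and class pairs (1.39% to 3.57% higher within a class). All 4 were Dnajb1. Of the 121 measured pairs of the 21 immediate early genes, Fos included, 84 (69.4%) were higher in KO and 0 lower. Their class medians lay between 0.47 and 0.90 on the log2 scale, against -0.14 to 0.24 for the chaperones and -0.11 to 0.01 for all measured genes. Dusp1, a phosphatase of MAP kinases, had 732.9 CPM in KO and 359.3 CPM in WT in ILC2-like cells (2.04-fold). Klf4, a zinc finger transcription factor, was 2.23-fold higher in the same cells, at 375.0 CPM in KO and 167.8 CPM in WT. Egr1, another zinc finger factor, had 747.0 CPM in KO and 288.2 CPM in WT in basophil or mast cell-like cells (2.59-fold).

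Few other genes of the heat shock network passed the size rule. Of 111 measured pairs of 22 HSF1-linked genes, mostly chaperones and cochaperones, 1 (0.901%) was higher in KO and 0 lower. The 1 was Dnajb4, another Hsp40 gene, in ILC precursor-like cells, with 67.0 CPM in KO and 40.4 CPM in WT (1.66-fold). Chordc1, an Hsp90 cochaperone, was at 55.4 CPM in KO and 77.8 CPM in WT in ILC2-like cells (0.713). None of the 49 pairs of the cytosolic CCT chaperonin and none of the 18 pairs of mitochondrial chaperones and proteases passed in either direction. Among 74 pairs of endoplasmic reticulum chaperones 2 were higher, both Dnajb9, in plasmacytoid dendritic cell-like and in basophil or mast cell-like cells, and 1 was lower, Hsp90b1 in T-like cells. Of 63 growth gene pairs 4 were higher and 0 lower, and of 66 cell cycle gene pairs 1 was higher and 10 lower.

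**Figure D3:**
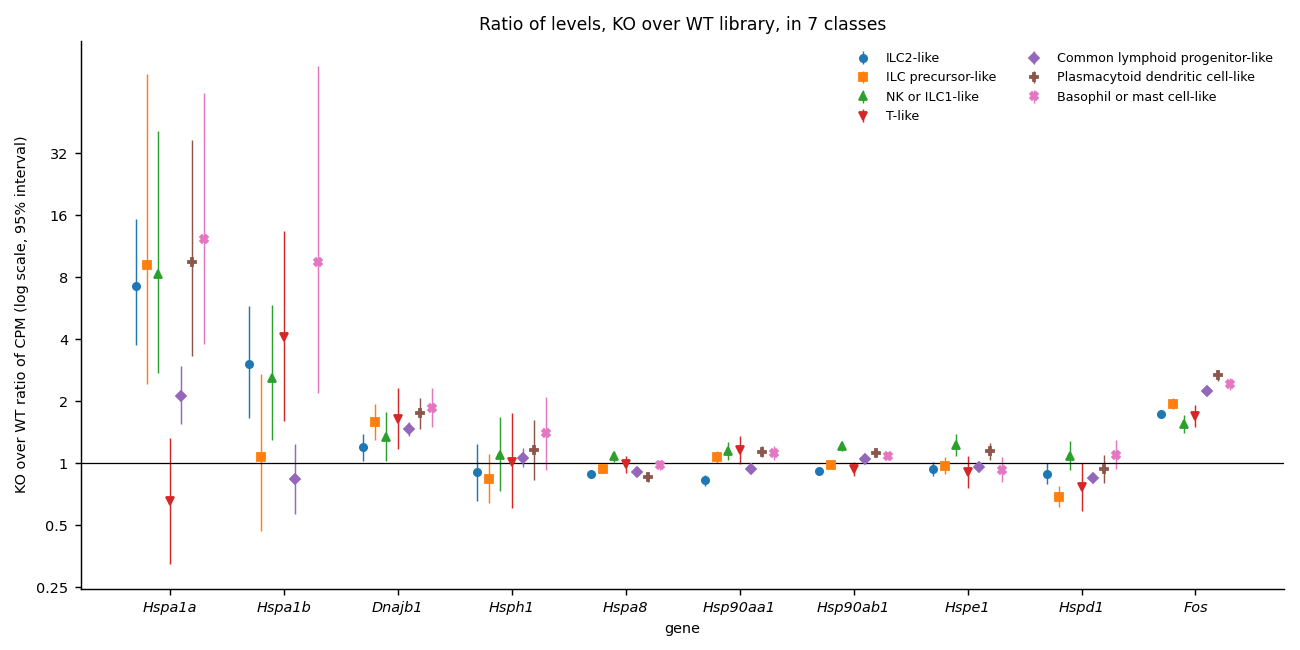
Ratio of the level in KO to that in WT (y axis, log scale) for each chaperone and Fos (x axis) in the 7 compared classes, with exact binomial intervals at 95%. A pair with fewer than 10 UMIs over both libraries is not drawn. All 7 Fos points lie above 1, between 1.55 and 2.67, as do all 7 Dnajb1 points, between 1.19 and 1.86, while the points of Hsph1, Hspa8, the Hsp90 genes, Hspe1 and Hspd1 scatter around 1.

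Across classes the chaperones did not share the order of Fos. In KO, Hsph1, Hspa8, Hsp90aa1, Hsp90ab1, Hspe1 and Hspd1 had their highest level in common lymphoid progenitor-like cells, where Hsp90ab1 reached 3452 CPM, Hsp90aa1 1155 CPM and Hspd1 310.1 CPM. Against the lowest of the 8 KO classes this was 2.26-fold for Hsp90ab1 and 2.74-fold for Hsp90aa1, the lowest being ILC2-like cells for both, and 3.06-fold for Hspd1, the lowest being ILC3-like cells. ILC3-like cells were compared only within KO, since WT had 7 of them and KO 202. In WT the 68 early B-like cells held the highest level of Hsph1 (84.8 CPM), Hsp90aa1 (1285 CPM), Hsp90ab1 (3457 CPM), Hspe1 (591.7 CPM) and Hspd1 (526.5 CPM), and Hspa8 was highest in common lymphoid progenitor-like cells (1863 CPM). Dnajb1 was highest in plasmacytoid dendritic cell-like cells in both libraries, and lowest in ILC2-like cells in KO (90.4 CPM) and in early B-like cells in WT (58.7 CPM). Fos was highest in ILC2-like cells in both. Between neighbours in the order of 8 classes the intervals were mostly not apart. They were apart at 4 of 7 steps for Hsp90aa1 in KO and 3 in WT, at 2 steps for Dnajb1 in KO and 0 in WT, and at 0 steps for Hsph1 in KO and 1 in WT.

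From cell to cell, Spearman correlations with Fos were taken within a class and a library over cells thinned to 2000 UMIs. Cells of a class share their library and sort, and the values are descriptions. Over 55 chaperone and class pairs in each library the median was 0.00 in KO and -0.04 in WT. A correlation of at least 0.2 was reached by 1 of 55 pairs (1.82%) in KO, against 0.665% of all gene and class pairs, and by 1 of 55 in WT, against 2.01%. The KO pair was Dnajb1 in basophil or mast cell-like cells (0.35 over 195 cells) and the WT pair Hsp90aa1 in NK or ILC1-like cells (0.26 over 116 cells). In those KO cells Fos also fell with the mitochondrial share (Spearman -0.35) and was lower in cycling cells (ratio 0.387). The part of either in this pair was not tested. Of the other immediate early genes, 78 of 142 pairs (54.9%) reached 0.2 in KO and 37 of 131 (28.2%) in WT. In ILC2-like cells the genes most like Fos in both libraries, out of 4397 detected in both, included Fosb (0.47 in KO over 704 cells and 0.47 in WT over 806), Jun (0.40 and 0.46), Junb, Jund, Srsf5, Dusp1 and Klf6, and none of the 9 chaperones was among the 8 nearest.

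Dnajb1 had the highest median of the chaperones in KO, with Hsp90aa1 next to it. The Dnajb1 correlation with Fos was above 0 in 8 of 8 KO classes, with a median of 0.13, and lay above that of 98.8% of measured genes in the median class. The WT values had a median of 0.05 and were above 0 in 6 of 8 classes, above 75.2% of genes in the median class. Hsp90aa1 had a median of 0.11 in KO and -0.02 in WT. It was above 0 in 6 of 8 KO and 4 of 8 WT classes, and above 96.3% of genes in the median KO class and 47.1% in the median WT class. Hspa8 had 0.02 in KO and -0.06 in WT, Hsp90ab1 -0.04 in KO and -0.09 in WT, Hspe1 -0.05 in KO and -0.01 in WT, and Hspd1 -0.03 in KO and -0.05 in WT. Hspa1a and Hspa1b were detected in too few thinned cells to be correlated alone in most classes. Their sum had a median correlation with Fos of 0.08 in KO and -0.03 in WT.

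**Figure D4:**
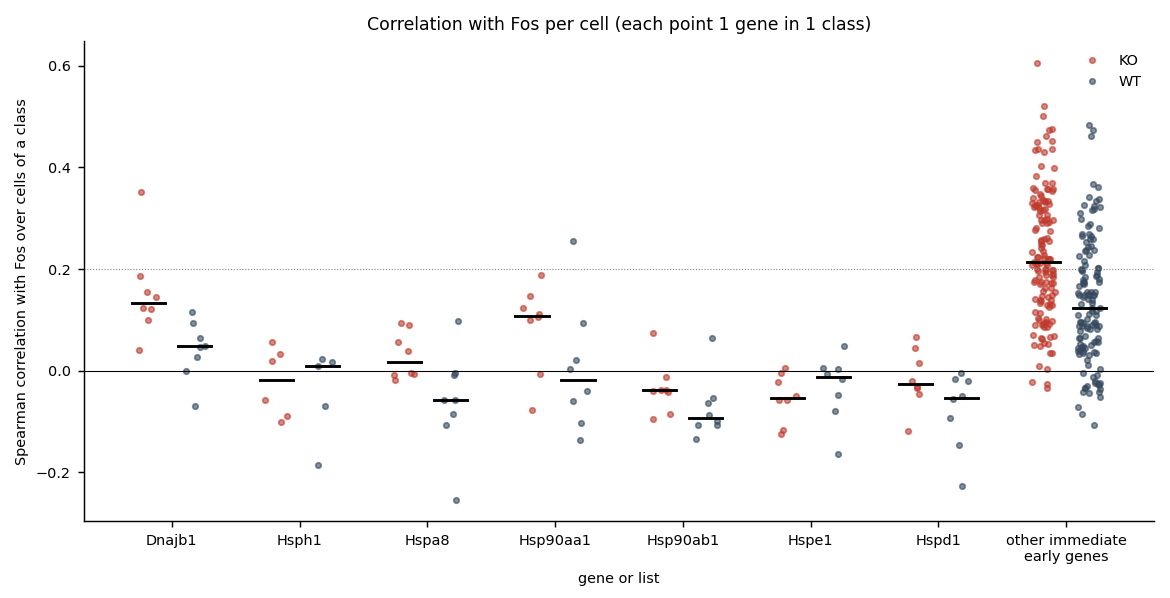
Spearman correlation with Fos over cells of a class thinned to 2000 UMIs (y axis), for 7 chaperones and the other immediate early genes (x axis), KO left and WT right. Each point is 1 gene in 1 class, black bars are medians, and the dotted line is 0.2. The immediate early genes have medians of 0.21 in KO and 0.12 in WT, Dnajb1 has 0.13 in KO and 0.05 in WT, Hsp90aa1 has 0.11 in KO and -0.02 in WT, and Hspa8, Hsp90ab1, Hspe1, Hspd1 and Hsph1 scatter around 0.

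The same was seen as levels. Within each class the tertile of cells with the most Fos UMIs was set beside the tertile with the fewest, and the UMIs were summed over classes (1182 KO cells and 803 WT cells in each tertile). Dnajb1 had 158.6 CPM in the top and 72.8 CPM in the bottom tertile in KO (2.18-fold, 1.82 to 2.63), and 85.9 and 54.8 CPM in WT (1.57-fold, 1.19 to 2.07). In KO, Hspa1b was 3.15-fold higher in the top tertile (1.66 to 6.41, 41 against 13 UMIs) and Hspa1a 1.67-fold (1.01 to 2.79, 45 against 27 UMIs). Most of the Hspa1b UMIs came from NK or ILC1-like (14 against 4) and T-like cells (11 against 0). Hspa1a had 10 against 1 in ILC precursor-like cells and 3 against 7 in ILC2-like cells. By class the interval lay above 1 in 1 of 8 classes for each gene. With so few cells carrying these UMIs, the summed intervals are narrower than the spread from cell to cell. The WT tertiles held 8 against 6 UMIs of Hspa1b and 8 against 9 of Hspa1a, so a difference was not detectable at this depth. Of the 9 chaperones, 3 were thus at least 1.5-fold higher in the top tertile in KO with an interval that left out 1, against 2.73% of all genes with at least 50 UMIs, and 1 of the 7 with enough UMIs in WT, against 3.08%. None was as much lower in either library, against 2.6% of genes in KO and 2.4% in WT. For the immediate early genes it was 19 of 20 in KO and 13 of 18 in WT, with medians of 2.14-fold and 1.84-fold. Dusp1 was 2.71-fold higher in KO and 2.32-fold in WT.

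None of the other members reached 1.5-fold in either direction over the summed classes. Hsp90aa1 was 1.10-fold higher in the top tertile in KO (1.03 to 1.18) and at 0.948 in WT (0.872 to 1.03). By class, its ratio was above 1 in 7 of 8 KO classes and its interval in 3, T-like (1.78), ILC2-like (1.31) and ILC precursor-like cells (1.28). The class with the most cells, the common lymphoid progenitor-like one, was at 0.947 (0.857 to 1.05). In WT the ratio of Hsp90aa1 was above 1 in 5 of 8 classes, with 1 interval above 1 and 2 below. Hspa8 had a ratio of 1.02 in KO (0.974 to 1.08) and 0.888 in WT (0.837 to 0.942). Hsp90ab1 had 0.924 in KO and 0.908 in WT, and Hspe1 0.889 in KO and 0.909 in WT. Hspd1 was lower in the top tertile, at 0.864 in KO (0.748 to 0.997) and 0.688 in WT (0.586 to 0.808), and Hsph1 was at 0.714 in KO (0.524 to 0.970) and 0.947 in WT (0.641 to 1.40). Among the HSF1-linked genes, the J-protein gene Dnaja1 was 1.42-fold higher in KO and 1.15-fold in WT. Over the 20 genes of that list with enough UMIs the median ratio was 0.951 in KO and 0.984 in WT.

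Summed over classes, KO cells with a Hspa1a or Hspa1b UMI held more of 4 other chaperones. In KO, 114 such thinned cells were set beside 3437 without, at the same mix of classes, and Dnajb1 was 1.98-fold higher in them (1.46 to 2.63), Hsp90aa1 1.49-fold (1.30 to 1.71), Hspa8 1.18-fold (1.06 to 1.31) and Hsp90ab1 1.17-fold (1.07 to 1.27). Hsph1 was at 1.65 (0.880 to 2.83), Hspd1 at 1.28 (0.936 to 1.70) and Hspe1 at 0.926 (0.716 to 1.18). In KO 2 classes had enough such cells to be taken alone. In 27 NK or ILC1-like cells with a UMI, Dnajb1 was 2.37-fold higher (1.13 to 4.52) and Hsp90aa1 1.49-fold (1.03 to 2.08), while Hspa8 was lower, at 0.711 with the interval below 1. In 28 common lymphoid progenitor-like cells the interval of every member left to compare held 1, with Dnajb1 at 0.989 and Hsp90aa1 at 1.17 (0.906 to 1.49). How many of all genes differ between such cells was not computed. WT had only 30 such cells, and there Hspa8 was 1.34-fold higher (1.10 to 1.61) while the intervals of Dnajb1 (2.11, 0.966 to 4.01), Hsp90aa1 (1.24, 0.929 to 1.62) and Hspd1 (1.49, 0.895 to 2.32) held 1. Fos was 1.38-fold higher in these cells in KO (1.26 to 1.51) and 1.61-fold in WT (1.30 to 1.98). The intervals of the values summed over classes, here and for cycling cells, cover the count in the first group of cells only. In ILC2-like cells the gene most like the summed Hspa1a and Hspa1b was Morf4l2 (Spearman 0.12 in KO, 0.15 in WT), and all of the 8 nearest genes stayed below 0.2.

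Summed over classes, most other chaperones were higher in cycling cells. How many of all genes differ between cycling and other cells was not computed. Cells were called cycling with at least 2 of 6 markers detected. At the same mix of classes, Hspd1 was 1.65-fold higher in cycling cells in KO and 1.62-fold in WT (1.48 to 1.77), and Hsp90aa1 was 1.55-fold higher in KO and 1.38-fold in WT. Hsph1 was 1.91-fold higher in KO (1.54 to 2.33) and 1.52-fold in WT (1.21 to 1.89), Hspa8 1.36-fold in KO and 1.25-fold in WT, and Hspe1 1.41-fold in KO and 1.15-fold in WT. Hsp90ab1 was 1.17-fold higher in KO and 1.12-fold in WT. In plasmacytoid dendritic cell-like cells its ratio was 0.974 in KO and 0.890 in WT, with both intervals holding 1, while the other classes had ratios above 1. For Hsph1 every interval of a single WT class held 1. Dnajb1 was lower in cycling cells in KO, at 0.749 (0.638 to 0.873), and at 1.03 in WT (0.862 to 1.22), and Fos was lower in both, at 0.671 in KO and 0.708 in WT. By class in KO, the interval of Dnajb1 lay below 1 only in common lymphoid progenitor-like cells (0.673). The ratio was 1.28 in plasmacytoid dendritic cell-like cells, with an interval that held 1. Cycling cells made up 2.55% of KO and 10.9% of WT ILC2-like cells, and 41.3% of KO and 56.1% of WT common lymphoid progenitor-like cells. The part of this difference in the KO to WT ratios above was not tested.

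**Figure D5:**
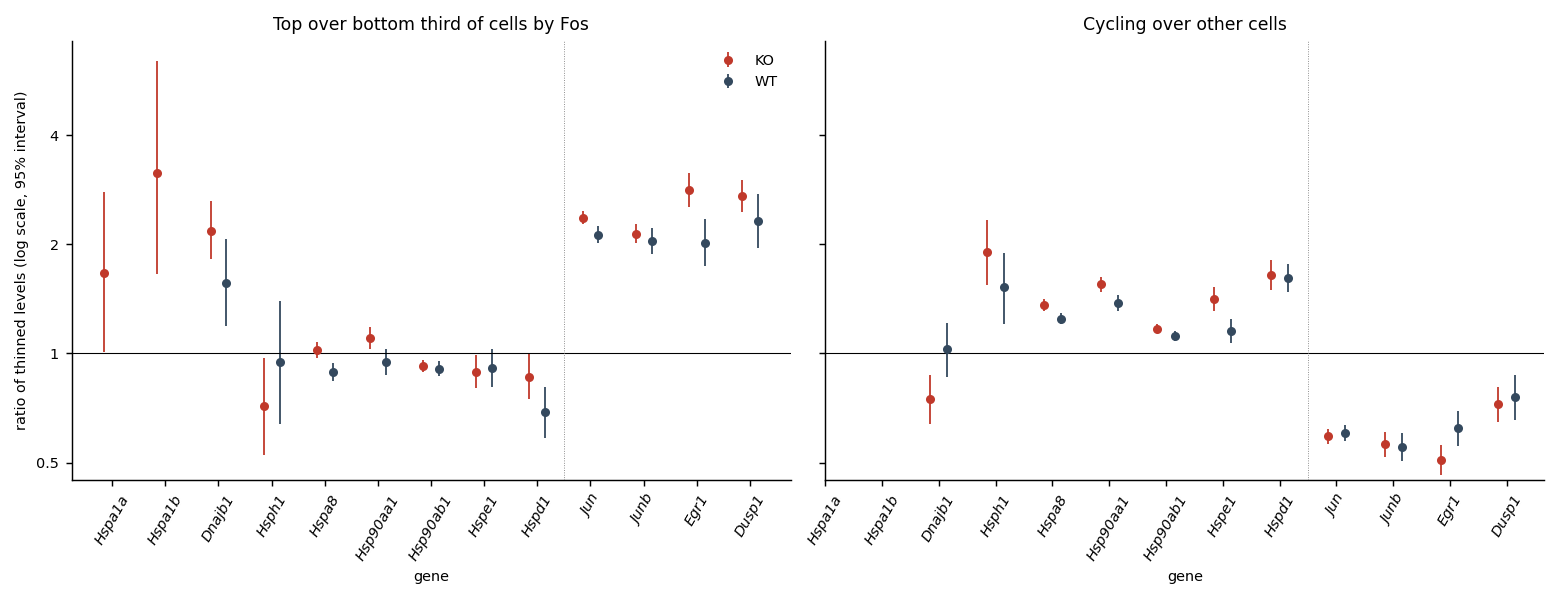
Ratio of thinned levels (y axis, log scale) between the top and bottom tertile of cells by Fos (left panel) and between cycling and other cells (right panel, where Hspa1a and Hspa1b are not drawn), KO left and WT right, with intervals at 95% for counting error. In the left panel Dnajb1 (2.18 in KO, 1.57 in WT) lies with Jun, Junb, Egr1 and Dusp1 above 1, while in the right panel Hsph1, Hspa8, the Hsp90 genes, Hspe1 and Hspd1 lie above 1 and Jun, Junb, Egr1 and Dusp1 below.

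The correlations among the chaperones themselves were weak. Among the pairs measured in all 8 classes, the highest medians in KO were those of Hspa8 with Hsp90ab1 (0.20 in KO, 0.14 in WT) and of the Hsp90 genes with each other (0.19 in KO, 0.16 in WT). In WT the Hsp90 pair and Hsp90ab1 with Hspd1 came first, the last of these with 0.07 in KO and 0.16 in WT. Hspe1 with Hspd1, the chaperonin pair, had 0.12 in KO and 0.06 in WT. Dnajb1 had medians between -0.01 and 0.06 in KO and between -0.02 and 0.02 in WT with Hspa8, Hsph1, the Hsp90 genes, Hspe1 and Hspd1. With the summed level of 10 growth genes linked to Myc, Hsp90ab1 had a median correlation of 0.18 in KO and 0.28 in WT, Hspa8 0.18 in KO and 0.13 in WT, and Dnajb1 -0.03 in KO and 0.02 in WT.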

How the data were processed

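Counts in the deposited matrices are raw UMIs, produced with Cell Ranger 3.1.0 per the file headers from 10x 3' libraries (mm10; Seurat is also named in the submitters' processing notes, with its role and the annotation release not given in the sources used here). Sums of UMIs over a class were scaled to CPM, with exact Poisson intervals for levels, exact binomial intervals for ratios and Clopper-Pearson intervals for shares, all at 95%. A cell was gated to the class with most detected markers, at least 3 of 8 and ahead of every other class, a rule settled after seeing the data. No doublet caller was run, and the lead was not tested as a filter on doublets. Leaving out the 8% of barcodes with the most UMIs was tried. Correlations used genes detected in at least 5% of cells thinned to 2000 UMIs (seed 1). All 9 members and Fos were named, with the largest ratios of each list and the 8 genes most like Fos, except for a gene that is not reported here. Motif and GENCODE M21 searches, the fold rule and the correlation were checked on simulated or reference data. Tools were Python 3.11.15, numpy 2.4.6, scipy 1.17.1, scanpy 1.11.5 and, for TMM factors, edgeR 4.0.16. The members and lists were chosen with earlier results of these data known.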

Additional observations from a re-analysis of the deposited data

Results flagged for a closer look

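Cells that the gate left without a class, 708 in KO and 668 in WT, enter no comparison above, and there too Hspa1a was 2.64-fold higher in KO (1.72 to 4.19), Hspa1b 2.26-fold (1.48 to 3.55) and Dnajb1 1.56-fold (1.38 to 1.77). Of these cells 18.1% in KO and 49.4% in WT were cycling, and the part of that in the ratios was not tested.

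For 4 members the interval of the ratio lay above 1 in some of the 7 classes and below 1 in others, in 4 and 2 classes for Hsp90aa1, 4 and 1 for Hsp90ab1, 2 and 1 for Hspe1 and 1 and 4 for Hspa8. These counts have no minimum fold, and how many of all genes do the same was not computed. The log2 ratio of KO over WT was higher in NK or ILC1-like cells by 0.48 than in ILC2-like cells for Hsp90aa1, by 0.40 than in ILC2-like cells for Hsp90ab1, by 0.35 than in common lymphoid progenitor-like cells for Hspe1 and by 0.34 than in plasmacytoid dendritic cell-like cells for Hspa8. These differences between classes were not tested, and the ILC2-like cells of the libraries were made up of different shares of clusters. Within the clusters led by Rnf128 and by Calca, neither Hsp90 gene had an interval below 1 in ILC2-like cells.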

How the results depend on the processing

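The log2 ratio of Dnajb1 was above 0 in all 69 values under the alternatives run (0.02 to 0.95), in every class. No alternative turned a ratio that had been counted. The 4 pairs counted higher in KO became 2 after thinning, 2 with a stricter gate (6 classes) and 14 of 63 without a minimum on UMIs and CPM, and lay between 3 and 5 otherwise. The 0 pairs counted lower became 1 with at most 5% mitochondrial UMIs, 1 after thinning, 1 with the stricter gate, 1 with Leiden clusters, 1 without the 8% of barcodes with the most UMIs, and 3 with the mean over cells of each share. Pairs correlated with Fos at 0.2 or more, 1 in each library, became 5 in KO without thinning, 3 with at most 5% mitochondrial UMIs, 2 with the stricter gate, 2 without cycling cells and 0 without the deepest 8%. In WT they became 0 at 3000 UMIs, 0 without thinning, 3 without the deepest 8% and 3 without cycling cells. Chaperones highest in common lymphoid progenitor-like cells in WT, 1 at first, became 2 after thinning and 2 with the stricter gate. The share of all genes counted under each alternative is not given here, so these counts cannot be told apart from a shift of all genes. The cause was not tested for any of these changes. TMM factors moved all ratios by 0.10 in ILC2-like and 0.14 in T-like cells on the log2 scale, and by at most 0.05 elsewhere. No paired analysis was possible because each genotype had 1 library. Hspa1a and Hspa1b, with as few as 1 UMI in a WT class, limit what their ratios can show.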
